A study of Homo sapiens with 2 samples.

Results

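Polyamine synthesis and turnover genes were examined in single-cell transcriptomes of 2 prostate carcinoma lines. The 10 genes, chosen by symbol, were ODC1, AMD1, SRM and SMS for synthesis, SAT1, SMOX and PAOX for turnover, OAZ1 and OAZ2 for antizyme, and AZIN1 for antizyme inhibitor. All 10 of the 36601 genes listed had a row in both count matrices. LNCaP_FGC is the standard line that grew from a lymph node metastasis of prostate carcinoma, was never cloned, and holds both ETV1-expressing and ETV1-silent cells. LNCaP_C4-2B is a castration-resistant derivative that was selected by passage in mice. Both lines were grown at steady state in RPMI1640 with fetal bovine serum and Pen/Strep antibiotic, and neither was treated further. Each line gave 1 library of 1850 cells, and their batch labels are different dates, so line and batch cannot be told apart.

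Polyamines are small, positively charged molecules that bind nucleic acids and sustain translation and growth. Ornithine is decarboxylated to putrescine, which is extended to spermidine and then to spermine with aminopropyl groups that come from decarboxylated S-adenosylmethionine. The pool is drained by acetylation, oxidation and export, and antizyme closes a feedback loop by sending ornithine decarboxylase to the proteasome. Prostate epithelium is known for exceptionally high polyamine synthesis, because spermine is secreted into the seminal plasma.

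The feedback loop works through a frameshift in the antizyme message, which transcript counts do not read. The site is shown because OAZ1 had the most UMIs of the 10 genes in LNCaP_C4-2B, and its count says nothing of how often ribosomes shift. In GRCh38 the OAZ1 site was at chr19:2271431-2271457 on the plus strand and the OAZ2 site at chr15:64691501-64691527 on the minus strand. Both lie in coding exons, where the annotated reading frame skips 1 base. Capitals mark the last sense codon and the stop codon of the first frame.
OAZ1: cggtggtgcTCCTGAtgcccctcaccc
OAZ2: ctgtggtgcTCCTGAtgcccctcaccc
The sites of both genes shared 26 of 27 bases.

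Library totals were 35150013 UMIs in LNCaP_FGC and 35149989 in LNCaP_C4-2B, with medians of 18292 and 17566.5 UMIs per cell and no barcode shared between them. Levels are in CPM, UMIs scaled to a library total of 1000000. One UMI was worth 0.0284 CPM, and 3 UMIs, the limit taken for a count of 0, were 0.0853 CPM. All 7 luminal markers were present, with sums of 2625 and 4961 CPM in LNCaP_FGC and LNCaP_C4-2B. The lists of basal, immune, fibroblast, endothelial and erythroid markers each summed to between 0.0569 and 5.04 CPM. ETV1 was at 154 CPM in LNCaP_FGC and at 0 UMIs in LNCaP_C4-2B. No cell type that should lack the polyamine genes was present to give a level for free RNA.

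In CPM the lines carried a similar total of polyamine transcripts in a different mixture. These sums are not centred on the median gene, whose log2 ratio of LNCaP_C4-2B to LNCaP_FGC was -0.43. Relative to it, both the total and the synthesis sum were higher in LNCaP_C4-2B. The 10 genes summed to 3527 CPM in LNCaP_FGC and 3735 CPM in LNCaP_C4-2B. The 4 synthesis genes summed to 1968 and 1792 CPM, whereas the 3 turnover genes summed to 471 and 103 CPM and the 2 antizyme genes to 1016 and 1810 CPM. ODC1, OAZ1 and PAOX were higher in LNCaP_C4-2B, and AMD1, SAT1 and AZIN1 were higher in LNCaP_FGC. Because each line is 1 library, no test was possible, and the 95% intervals given throughout cover counting error only.

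**Figure D1:**
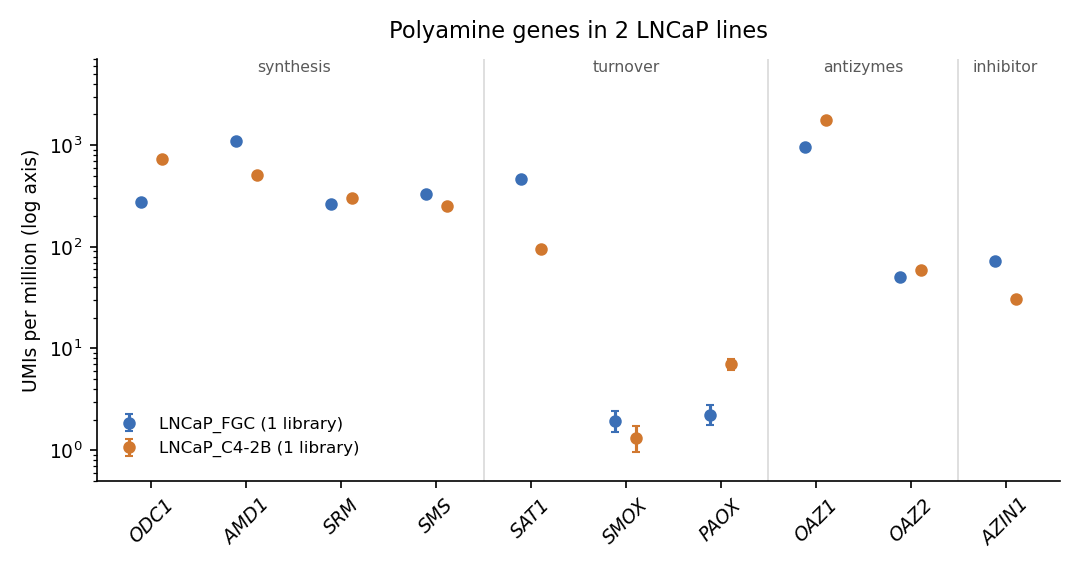
CPM (log axis) of the 10 genes, grouped by role, with 1 point per library and exact Poisson 95% intervals, which are narrower than the points for 8 genes. ODC1, OAZ1 and PAOX are higher in LNCaP_C4-2B, AMD1, SAT1 and AZIN1 are higher in LNCaP_FGC, and SMOX lies below 2 CPM in both lines.

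ODC1 encodes ornithine decarboxylase, the enzyme that commits ornithine to putrescine. It was at 274 CPM (interval, 269–279) in LNCaP_FGC and 727 CPM (718–736) in LNCaP_C4-2B. The ratio of LNCaP_C4-2B to LNCaP_FGC was 2.65 (2.59–2.72), and 3.04% of the genes compared had a higher one.

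AMD1, S-adenosylmethionine decarboxylase, makes the aminopropyl donor for both later steps. Its level was 1101 CPM (1090–1112) in LNCaP_FGC and 506 CPM (499–514) in LNCaP_C4-2B, a ratio of 0.46 (0.452–0.468). By UMIs the 2 decarboxylases thus stood in opposite order in the 2 lines. LNCaP_FGC held 4.02 AMD1 UMIs (3.93–4.11) for each ODC1 UMI, and LNCaP_C4-2B held 0.696 (0.683–0.71). The assay counts 1 end of each molecule, whatever its length, but how well each gene is captured was not measured. Ratios between genes are therefore ratios of UMIs, and may differ from ratios of molecules.

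SRM, spermidine synthase, was at 263 CPM in LNCaP_FGC and 304 CPM in LNCaP_C4-2B, a ratio of 1.16 (1.13–1.19). SMS, spermine synthase, was at 331 and 254 CPM, a ratio of 0.768 (0.747–0.789). In CPM the gaps of the 2 aminopropyltransferases were smaller than those of the decarboxylases, but relative to the median gene SRM was at 0.64 and AMD1 at -0.70 on the log2 scale.

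SAT1, spermidine/spermine acetyltransferase, marks polyamines for oxidation or export and showed the widest gap of the 10 genes in CPM. Relative to the median gene the gap of PAOX was wider, at 2.08 against -1.88 on the log2 scale, and that of ODC1 was 1.83. The level of SAT1 was 467 CPM (460–474) in LNCaP_FGC and 94.7 CPM (91.5–98.0) in LNCaP_C4-2B, which makes LNCaP_FGC 4.93-fold higher. In LNCaP_FGC 0.587 ODC1 UMIs were counted for each SAT1 UMI, against 7.68 in LNCaP_C4-2B. PAOX, the peroxisomal oxidase of acetylated polyamines, had 78 UMIs (2.22 CPM) in LNCaP_FGC and 245 UMIs (6.97 CPM) in LNCaP_C4-2B, a ratio of 3.14 (2.43–4.11). SMOX, the oxidase that turns spermine back to spermidine, had 68 and 46 UMIs (1.93 and 1.31 CPM), and its ratio of 0.676 had an interval from 0.455 to 0.998.

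OAZ1, the main antizyme, was at 965 CPM (955–976) in LNCaP_FGC and 1751 CPM (1737–1764) in LNCaP_C4-2B, a ratio of 1.81 (1.79–1.84). OAZ2, a second antizyme gene, was at 50.5 and 59.1 CPM, a ratio of 1.17 with a lower bound of 1.10. AZIN1, a decarboxylase homolog that lacks activity and traps antizyme, was at 71.9 and 30.8 CPM, a ratio of 0.429 (0.399–0.461). For each AZIN1 UMI there were 13.4 OAZ1 UMIs in LNCaP_FGC and 56.8 in LNCaP_C4-2B.

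The median gene was itself lower in LNCaP_C4-2B, with a log2 ratio of -0.43 over the 12764 genes that had at least 100 UMIs. Ribosomal protein genes took 28.2% of the UMIs in LNCaP_C4-2B and 23.2% in LNCaP_FGC, and mitochondrial genes took 8.35% and 6.27%, and their part in the results was not tested. Relative to the median gene, and with 1.5-fold as the limit of size, 5 members were higher in LNCaP_C4-2B (ODC1, SRM, PAOX, OAZ1 and OAZ2), 3 were lower (AMD1, SAT1 and AZIN1) and 2 were within the limit. The same limit took 22.8% of all genes as higher and 22.3% as lower. Without centring on the median gene, SRM and OAZ2 were above 1 but no longer past the limit, SMS was at -0.38 in place of 0.04 on the log2 scale, 3 members were higher and 3 lower, and the split over all genes was 11.2% higher and 41.7% lower.

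The 6 genes with gaps of 1.5-fold or more in CPM kept their direction within each called phase. The ODC1 ratio was 3.47 in G1, 2.21 in S and 2.14 in G2M cells. For SAT1 it was 0.175, 0.191 and 0.28. The AMD1 ratio lay between 0.437 and 0.495, that of AZIN1 between 0.409 and 0.449, that of OAZ1 between 1.71 and 1.87, and that of PAOX between 2.57 and 4.24. PAOX rested on 15 to 39 UMIs per phase in LNCaP_FGC.

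Splitting LNCaP_FGC by ETV1 moved the ratio of SMS and, by less, those of SAT1 and AMD1. Against LNCaP_FGC cells with no ETV1 UMI the SMS ratio of LNCaP_C4-2B was 0.63 (0.602–0.659), and against cells with at least 2 ETV1 UMIs it was 0.961 (0.915–1.01). The corresponding ratios were 0.182 (0.172–0.192) and 0.227 (0.215–0.24) for SAT1. For AMD1 they were 0.475 (0.461–0.489) and 0.444 (0.431–0.456). They were 2.69 and 2.74 for ODC1, and 1.81 and 1.80 for OAZ1. For SMOX, with 9 and 24 UMIs in these LNCaP_FGC cells, they were 1.04 (0.469–2.53) and 0.465 (0.255–0.85), with intervals that overlap.

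The CACGTG letters, which MYC-family factors are known to recognize, were looked for in RefSeq promoter windows of 300 bases on GRCh38.p14. Because this motif reads the same on both strands, 1 search covered both. It was in 7.26% of the 35116 windows. It was in 2 of the 10 windows of the 7 members that had any, 1 each of ODC1 and SRM. The ODC1 stretch, at chr2:10447980-10448063 on the minus strand, lay in intron 1 of the gene and held 2 copies. The SRM stretch, at chr1:11060190-11060239 on the minus strand, lay upstream of the gene with the motif 199 bases before the start. Both stretches are shown with the motif in capitals because it is what these windows share.
ODC1: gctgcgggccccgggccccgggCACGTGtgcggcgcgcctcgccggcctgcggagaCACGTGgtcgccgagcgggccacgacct
SRM: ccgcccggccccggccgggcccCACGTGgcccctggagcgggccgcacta
Whether the motif acts on either gene was not tested. Over 18 groups of cells, made from 2 libraries, 3 phases and 3 KLK3 groups (defined with the KLK3 comparison) and centred within each library, the log2 levels of ODC1 and SRM had r = -0.22. Over single cells, thinned as described below, r of their log UMIs was 0.12 in LNCaP_FGC and -0.04 in LNCaP_C4-2B. Groups and cells of 1 library share its preparation, so these r values are descriptions only.

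Genes near some members on the genome are described by their median and range. Genes within 2 Mb of ODC1 had a median log2 ratio between the lines of 0.03 relative to the median gene (25 genes), against 1.83 for ODC1. SAT1, at chrX:23783173-23786210 on the plus strand, was at -1.88 when its 11 neighbors had a median of -0.10. AMD1, at chr6:110874770-110898879 on the plus strand, was at -0.70 with a median of -0.15 over 21 neighbors. OAZ1, at chr19:2269509-2273490 on the plus strand, was at 1.28 with a median of 0.16 over 96 neighbors. SMS, at chrX:21940709-21994837 on the plus strand and 1.84 Mb from SAT1, was at 0.04, with a median of -0.40 over 9 neighbors. Around ODC1 the neighbors ran from -3.34 to 2.05, around AMD1 from -1.83 to 0.94 and around OAZ1 from -5.36 to 6.67. Around SAT1 they ran from -0.87 to 1.67 and around SMS from -1.88 to 1.67. The low end around SMS was SAT1 itself. Of these members only SAT1 lay outside the range of its neighbors. A range tends to widen with the number of genes, here 11 for SAT1 and 96 for OAZ1, so this does not set SAT1 apart.

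For comparisons among cells, each cell was thinned to 11901 UMIs, which kept 1623 LNCaP_FGC and 1665 LNCaP_C4-2B cells. At this depth OAZ1 had a UMI in 100% of the cells of both lines, and AMD1 in 99.9% and 99%. ODC1 had one in 92.7% and 99.1%, and SAT1 in 93.4% and 57.0%. SMOX had a UMI in 2.22% and 1.5% of cells and PAOX in 2.96% and 7.93%. In the deposited counts the shares for SAT1 were 97.1% and 69.9%.

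SAT1 in LNCaP_FGC and ODC1 in LNCaP_C4-2B were the most uneven members from cell to cell. The variance of SAT1 in LNCaP_FGC was 25.0 times its mean, and that of ODC1 in LNCaP_C4-2B was 9.20 times its mean, whereas the median over genes with a mean of at least 0.5 UMIs was 1.12 and 1.10 in these lines. OAZ1 stayed at 1.20 and 1.56, and SRM at 1.29 and 1.30. SMS was at 2.15 in LNCaP_FGC and 2.95 in LNCaP_C4-2B, and AMD1 at 2.57 and 1.58. For SAT1, ODC1, SMS and AMD1 the counting intervals are therefore narrower than the spread between cells.

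SAT1 in LNCaP_FGC had a median of 3 UMIs per cell, 10 at the 90th percentile and 216 in the highest cell. The top 82 cells, 5% of the total, held 34.9% of all SAT1 UMIs. Among them 84.1% were called G1, against 41.7% of the rest, and their mean of proliferation UMIs was 40.4 against 106. Of genes at 50 CPM or more in these cells, those that stood highest over the rest included IL32 (94.3 against 4.25 CPM), BIRC3 (124 against 7.2), CD24, HMOX1 and CLU. IL32 is a cytokine, BIRC3 a caspase-binding inhibitor of apoptosis and HMOX1 the stress-induced heme oxygenase. The same cells had 1.65-fold more SMS (532 against 322 CPM), 1.29-fold more AMD1 and 0.648-fold as much ODC1.

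ODC1 in LNCaP_C4-2B had a median of 6 UMIs per cell and a highest value of 116, against 3 and 15 in LNCaP_FGC. The top 84 cells held 22% of its UMIs, and 69.0% of them were KLK3-high, against 33.1% of the rest. The genes highest in these cells were KISS1R, NDUFA4L2 (93 against 19.5 CPM), the metallothioneins MT2A (1624 against 414) and MT1X (570 against 147), ORAI3 and ALDOC, a glycolytic aldolase. The top cells for AMD1 in LNCaP_C4-2B had a similar list, led by MT2A (1930 against 397 CPM) and MT1X, and held 1.23-fold more ODC1 than the rest. All these cells were chosen for the member named, so the ratios describe them and test nothing.

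To ask how the genes depended on proliferation, cells were called G1, S or G2M by Seurat scores within each library. LNCaP_FGC had 804, 463 and 583 such cells and LNCaP_C4-2B had 904, 390 and 556, of which 128 and 154 had a best score within 0.05 of 0. No polyamine gene is on the scoring lists. Thinning kept 711, 412 and 500 of the called cells in LNCaP_FGC and 780, 376 and 509 in LNCaP_C4-2B. Before thinning, the median UMIs of these kept cells were lower in G1 (18276 and 16650) than in S (20171 and 21003) or G2M (20012 and 19718). The part of depth beyond thinning was not tested.

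SAT1 was highest in G1 cells, and it was the only member past 1.5-fold from the median gene in both phases and both lines. In LNCaP_FGC it was at 691 CPM in G1, 309 in S and 307 in G2M, with ratios to G1 of 0.447 (0.423–0.474) and 0.444 (0.421–0.468). In LNCaP_C4-2B it was at 118, 65.7 and 83.4 CPM, with ratios of 0.556 (0.488–0.633) and 0.706 (0.634–0.785). Without the 5% of cells highest in SAT1 the ratios were 0.668 and 0.737 in LNCaP_FGC and 0.674 and 0.865 in LNCaP_C4-2B, so the direction held and the G2M values no longer passed the limit. The G2M value of LNCaP_C4-2B was -0.62 on the log2 scale relative to the median gene, and it was -0.53 with another thinning seed, short of the limit. The order by phase was steady over KLK3 groups in LNCaP_FGC, where S over G1 lay between 0.387 and 0.512, and it was 0.342 (0.312–0.375) in ETV1-zero cells and 0.639 (0.588–0.694) in cells with at least 2 ETV1 UMIs. In LNCaP_C4-2B it was 0.914 (0.713–1.17) in KLK3-low and 0.463 (0.366–0.578) in KLK3-high cells.

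ODC1 ran in opposite directions. In LNCaP_FGC it was at 234 CPM in G1, 290 in S and 315 in G2M, with ratios to G1 of 1.24 (1.16–1.33) and 1.35 (1.26–1.44). In LNCaP_C4-2B it was at 838, 630 and 661 CPM, with ratios of 0.752 (0.72–0.785) and 0.79 (0.76–0.82). None of these reached 1.5-fold. Leaving out the 5% of cells highest in ODC1 gave 1.20 and 1.29 in LNCaP_FGC and 0.916 and 0.878 in LNCaP_C4-2B. KLK3 was also higher in G1 cells of LNCaP_C4-2B, at 37.9 UMIs per cell against 29.8 in S and 28.1 in G2M, and within KLK3-low, KLK3-middle and KLK3-high cells the ODC1 ratio of S over G1 was 0.929 (0.858–1.01), 0.788 (0.725–0.856) and 0.768 (0.715–0.825). That of G2M over G1 was 0.859, 0.954 and 0.883.

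SRM was higher in S than in G1 cells of both lines, at 280 against 227 CPM in LNCaP_FGC and 357 against 286 CPM in LNCaP_C4-2B, with intervals of the ratio of 1.15–1.32 and 1.17–1.33. In G2M over G1 it was 1.22 in LNCaP_FGC and 0.989 in LNCaP_C4-2B. AZIN1 in LNCaP_FGC was at 62.8 CPM in G1 and 83.7 in G2M, a ratio of 1.33 (1.18–1.51). AMD1 was lower in S than in G1, at 0.836 and 0.914 in the respective lines. OAZ1 kept between 0.947 and 1.04 times its G1 level in each phase and line. OAZ2 was at 59.0 CPM in G1, 48.7 in S and 47.7 in G2M cells of LNCaP_FGC. In LNCaP_C4-2B it was at 60.2, 59.4 and 66.2 CPM.

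**Figure D2:**
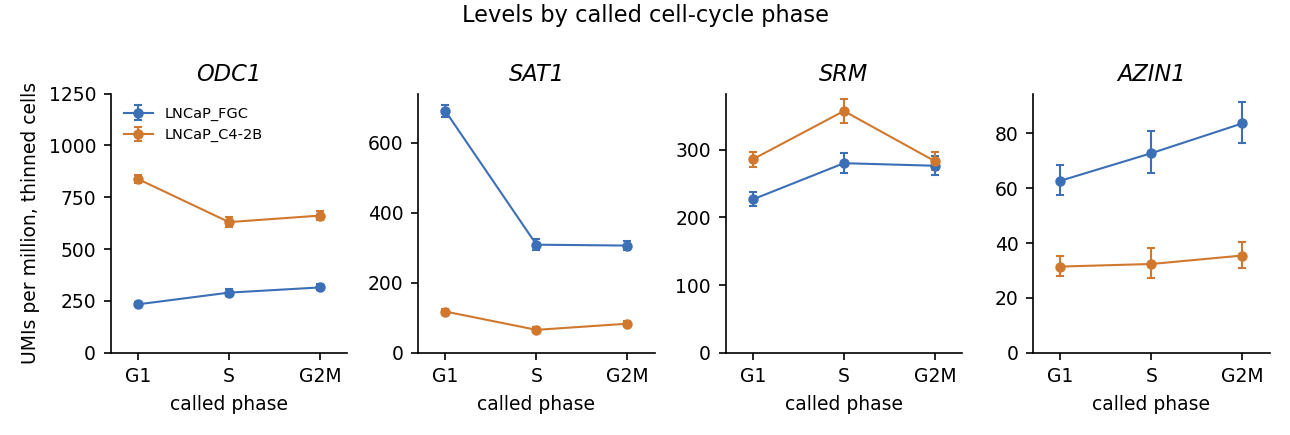
CPM of ODC1, SAT1, SRM and AZIN1 in cells called G1, S or G2M, thinned to equal depth, with exact Poisson 95% intervals and 1 library per line. SAT1 is highest in G1 in both lines, and ODC1 goes from 234 to 315 CPM in LNCaP_FGC and goes from 838 to 661 CPM in LNCaP_C4-2B.

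Counts of members past 1.5-fold between phases are given beside the shares over all genes. With 8 or 9 members, such small counts do not set them apart from all genes. Of 8 members with at least 100 UMIs in LNCaP_FGC, 0 were higher in S than in G1 (9.75% of all genes) and 1 was lower (4.87%). In LNCaP_C4-2B it was 0 (9.78%) and 1 (5.28%) of 9. For G2M over G1 it was 0 (9.52%) and 1 (6.37%) of 8 in LNCaP_FGC. In LNCaP_C4-2B it was 0 (8.6%) and 2 (5.79%) of 9, the second being PAOX at 33 against 71 UMIs, a ratio of 0.712 whose interval of 0.456–1.09 includes 1. Without centring, the last split was 11.8% higher and 3.75% lower over all genes, and 0 members were past the limit.

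KLK3 encodes prostate-specific antigen and is a readout of androgen receptor activity. Cells of each library were ranked by KLK3 UMIs and divided into 3 groups, unequal in size because many cells shared a count. The KLK3-middle group held 423 cells in LNCaP_FGC and 477 in LNCaP_C4-2B. In LNCaP_FGC the KLK3-low group was 616 cells with at most 1 KLK3 UMI and the KLK3-high group 584 cells with at least 12, and in LNCaP_C4-2B 607 cells had at most 26 and 581 at least 36. In LNCaP_FGC 696 cells lay within 1 UMI of the lower boundary. KLK3-high cells were more often in G1 than KLK3-low cells, 55.7% against 38.0% in LNCaP_FGC and 63.9% against 32.6% in LNCaP_C4-2B, and in LNCaP_FGC 72.7% of KLK3-low but 7.36% of KLK3-high cells had no ETV1 UMI.

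In LNCaP_C4-2B, ODC1 and SAT1 were higher in cells with more KLK3. ODC1 was at 568 CPM in KLK3-low and 946 CPM in KLK3-high cells, a ratio of 1.67 (1.60–1.73), and 1.54% of genes had a higher one. SAT1 was at 67.0 and 137 CPM, a ratio of 2.04 (1.83–2.29), with 0.595% of genes higher. Over 10 equal bins of KLK3, ODC1 went from 523 to 1236 CPM and SAT1 from 55.9 to 188 CPM, the top bin being the highest for both.

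The pattern was also present within phases. The ODC1 ratio was 1.64 in G1, 1.36 in S and 1.69 in G2M cells. The SAT1 ratio was 2.44 in G1, 1.23 (0.924–1.64) in S and 1.54 in G2M. Leaving out the 5% of cells highest in each gene lowered ODC1 to 1.22 (1.17–1.28) and SAT1 to 1.56 (1.38–1.77), so that ODC1 no longer passed 1.5-fold. Where cells were grouped without thinning, the log2 values relative to the median gene were 0.54 for ODC1 and 0.57 for SAT1, both under the limit.

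SRM had the opposite direction in LNCaP_C4-2B, at 333 CPM in KLK3-low and 263 CPM in KLK3-high cells, a ratio of 0.79 (0.743–0.84), but was at -0.02 on the log2 scale relative to the median gene where cells were not thinned. SMS was at 232 and 279 CPM, a ratio of 1.20 (1.12–1.28), which was 0.959 (0.89–1.03) without the 5% of cells highest in SMS. AMD1, at 1.05, and OAZ1, at 0.992, were near 1. Of 8 members compared, 2 were higher and 0 lower by 1.5-fold, against 4.6% and 2.41% of all genes (3.06% and 4.65% without centring).

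In LNCaP_FGC the same division gave another picture. SMS was at 394 CPM in KLK3-low and 266 CPM in KLK3-high cells, a ratio of 0.677 (0.638–0.718), and went from 405 to 255 CPM over the 10 bins. It was lower in each phase, at 0.643, 0.715 and 0.651 in G1, S and G2M cells. AMD1 was at 1021 and 1193 CPM, a ratio of 1.17 (1.13–1.21). ODC1, at 0.962 (0.902–1.03), and SAT1, at 1.05 (1.00–1.10), were near 1 over all cells. By phase the SAT1 ratio was 0.853 (0.803–0.905) in G1, 1.13 (0.997–1.28) in S and 0.966 (0.857–1.09) in G2M cells. Within ETV1-zero cells, of which 43 were KLK3-high, the SAT1 ratio was 1.21 (1.07–1.36). Within cells with at least 2 ETV1 UMIs it was 1.29 (1.14–1.46). These 2 ratios mix phases, and KLK3-high cells were more often in G1. Over the 10 bins SAT1 had no steady order, but the top bin was at 605 CPM and the bottom bin at 371 CPM. Cells with at least 24 KLK3 UMIs were also set against the 456 cells with none. SAT1 was then at 0.69 on the log2 scale relative to the median gene, past 1.5-fold. Between KLK3-high and KLK3-low cells none of the 8 members passed 1.5-fold relative to the median gene in either direction. The shares of all genes were 4.57% higher and 5.03% lower (3.33% and 7.51% without centring).

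**Figure D3:**
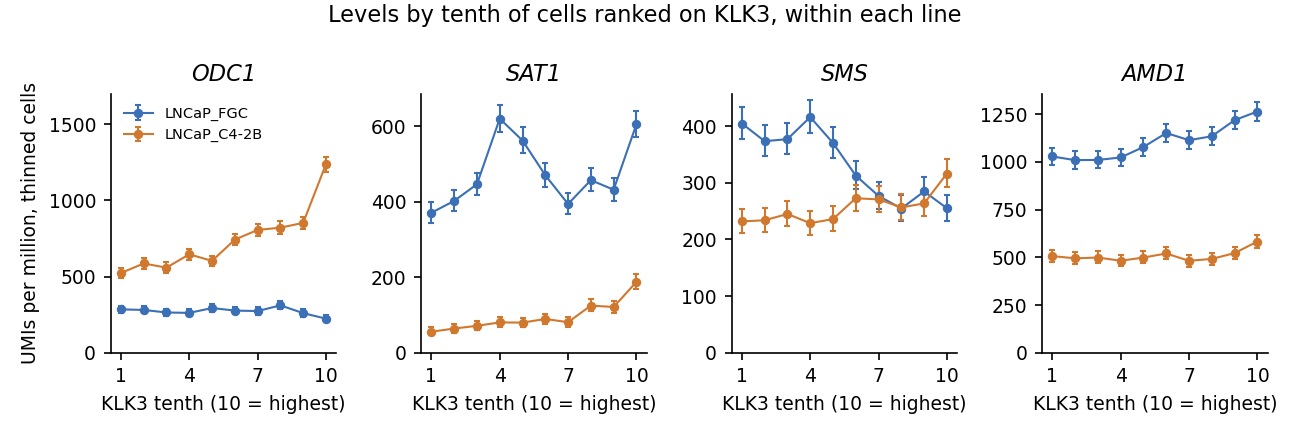
CPM of ODC1, SAT1, SMS and AMD1 in 10 bins of the cells of each library ranked by KLK3 UMIs (the lowest 2 bins of LNCaP_FGC have no KLK3 UMI and so no order between them), thinned to equal depth, with exact Poisson 95% intervals. In LNCaP_C4-2B ODC1 goes from 523 to 1236 CPM and SAT1 from 55.9 to 188 CPM, and in LNCaP_FGC SMS goes from 405 to 255 CPM.

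ETV1 is an ETS-family factor that is rearranged in LNCaP, and it was used to divide LNCaP_FGC into 622 cells with no ETV1 UMI and 743 with at least 2, leaving out 258 with 1. A cell without a UMI at this depth may still express the gene. KLK3 differed 6.25-fold between these groups, at 207 and 1293 CPM, while the G1 share was 40.8% and 46.2%.

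Of the 8 members with at least 100 UMIs, SMS differed most. It was at 406 CPM in ETV1-zero and 266 CPM in ETV1-positive cells, a ratio of 0.656 (0.621–0.692), and 96.5% of genes had a higher one. Over cells with 0, 1, 2 to 3 and 4 or more ETV1 UMIs it was at 406, 349, 278 and 251 CPM. The level in LNCaP_C4-2B, which has no ETV1, was 254 CPM. Relative to the median gene, SMS in LNCaP_C4-2B was at -0.22 on the log2 scale against ETV1-zero cells and at 0.31 against cells with at least 2 ETV1 UMIs, so it was not nearer to the latter by size on that scale. SMS was lower in ETV1-positive cells of each phase, at 0.594 in G1, 0.74 in S and 0.672 in G2M.

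Since the KLK3 and ETV1 groups overlapped, SMS was also compared within each. The ETV1 ratio of SMS was 0.86 (0.763–0.967) in KLK3-low, 0.668 (0.599–0.744) in KLK3-middle and 0.686 (0.587–0.805) in KLK3-high cells, of which 43 were ETV1-zero. Within ETV1-zero cells the KLK3 ratio was 0.881 (0.753–1.02), and within ETV1-positive cells it was 0.703 (0.622–0.796). The 9 genes within 2 Mb of SMS had a median log2 ratio of 0.03 relative to the median gene in the ETV1 comparison, with SMS at -0.54.

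SAT1 was at 527 CPM in ETV1-zero and 421 CPM in ETV1-positive cells, a ratio of 0.8 (0.764–0.837). It was lower in G1 cells, at 0.634 (0.599–0.671), but at 1.18 (1.06–1.32) in S and 0.956 (0.863–1.06) in G2M cells, and at 0.958 (0.905–1.01) without the 5% of cells highest in SAT1. Within KLK3-low, KLK3-middle and KLK3-high cells it was lower in ETV1-positive cells, at 0.673 (0.596–0.758), 0.708 (0.65–0.772) and 0.717 (0.636–0.811). AMD1 was at 1071 and 1146 CPM, a ratio of 1.07 (1.04–1.10). ODC1 was at 274 and 269 CPM, SRM at 250 and 257 CPM, and OAZ1 at 959 and 964 CPM, and the interval of each ratio included 1. SMOX had 9 and 24 UMIs, a ratio of 2.23 with an interval that reached 1.00. Of 8 members compared, 0 were higher and 0 lower by 1.5-fold relative to the median gene, against 2.99% and 2.84% of all genes. Without centring SMS was past the limit and the split was 2.26% and 3.97%.

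**Figure D4:**
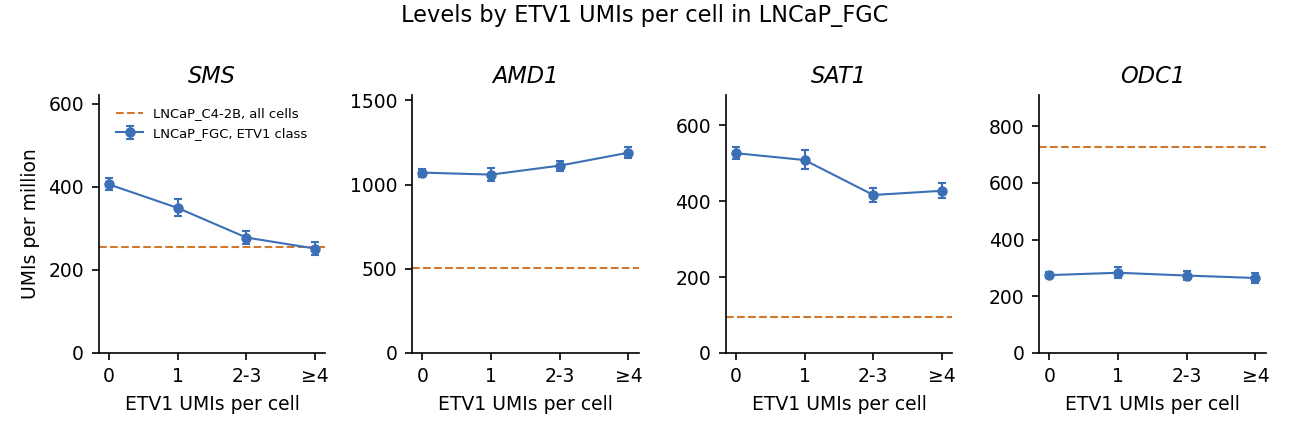
CPM of SMS, AMD1, SAT1 and ODC1 in LNCaP_FGC cells with 0, 1, 2 to 3 and 4 or more ETV1 UMIs, thinned to equal depth, with exact Poisson 95% intervals, and the level in the whole LNCaP_C4-2B library as a dashed line. SMS goes from 406 to 251 CPM, with LNCaP_C4-2B at 254 CPM, whereas ODC1 stays between 264 and 283 CPM.

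The genes whose levels ran most like each member were found over the 18 groups among 6063 genes. For ODC1 they were the glycolytic genes ENO1 (r = 0.90), GAPDH (0.84) and PGK1 (0.82). For AMD1 they were GATA2 (0.89), HOXB13 (0.87), a prostate lineage factor, and WSB1 (0.82). For SRM they were PA2G4 (0.93), CISD3 (0.90) and MRPL20 (0.86), a mitochondrial ribosomal protein gene. SMS was most like LPAR3 (0.90), and SAT1 most like POLD4, MMP24OS and LPP (0.90 each). The highest r of OAZ1 was 0.75, with C16orf70. Among the members themselves SRM and SAT1 ran in opposite directions, with r = -0.82.

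The other genes of polyamine metabolism were 41 genes for ornithine and arginine supply, the methionine cycle, methylthioadenosine salvage, hypusination, transport and minor turnover steps. Of 29 with enough UMIs between the lines, 7 were higher and 7 lower in LNCaP_C4-2B, shares close to the 22.8% and 22.3% of all genes. DHPS, which uses spermidine to start the hypusine of EIF5A, was at 92.5 against 35.1 CPM, and SLC7A1, a transporter of cationic amino acids, at 93.7 against 43.2 CPM. SLC22A3, an organic cation transporter that can carry polyamines, was at 2.73 CPM in LNCaP_C4-2B and 28.7 in LNCaP_FGC, and ASS1, argininosuccinate synthase, at 9.36 against 55.7 CPM.

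Within LNCaP_FGC, SLC22A3 was at 0.682 CPM in KLK3-low and 62.6 in KLK3-high cells. So few UMIs in KLK3-low cells left the ratio of 91.8 with a wide interval of 39.0–284. SLC22A3 was at 5.40 CPM in ETV1-zero and 49.1 in ETV1-positive cells, a ratio of 9.08 (6.56–12.9). GNMT, which uses up S-adenosylmethionine, had the direction of SMS in the KLK3 and ETV1 comparisons. Between the lines it did not, at 57.7 CPM in LNCaP_C4-2B and 33.5 in LNCaP_FGC, where SMS was lower in LNCaP_C4-2B in CPM. It was at 47.4 CPM in ETV1-zero and 20.1 in ETV1-positive cells and at 42.6 and 21.6 CPM in KLK3-low and KLK3-high cells of LNCaP_FGC, and at 41.9 and 75.6 CPM in those of LNCaP_C4-2B. It was also among the leading genes of the cells highest in SMS, at 94.3 against 29.0 CPM in LNCaP_FGC and 255 against 46.7 CPM in LNCaP_C4-2B. SAT2, a SAT1 homolog, was like SAT1 lower in S than in G1 cells of both lines, at 0.668 (0.578–0.77) and 0.59 (0.507–0.686). Of the 25 to 28 listed genes with enough UMIs in the other comparisons, 0 to 2 were higher and 0 to 3 lower. The shares over all genes in those comparisons were the ones given with the members, from 2.99% to 9.78% higher and from 2.41% to 6.37% lower.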

How the data were processed

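Single-cell 3′ libraries (10x Genomics v3.1) of 2 cell lines were analysed, with 1 library per line. The deposited values were UMI counts per gene and cell. According to the submitters' processing notes and the study's methods, the authors used Cell Ranger 6.0, GRCh38 and Seurat, filtered cells on genes, reads and hemoglobin, ribosomal and mitochondrial shares, removed likely doublets by SCDS score, drew 1850 cells per line and thinned the counts with scuttle to a mean of 19000 per cell. The sources used here do not give the annotation release, so genes were matched by symbol, and positions came from GENCODE v44. Thinning by the authors hides the original depth. No doublets were removed beyond theirs.

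UMIs were summed and scaled to CPM in Python 3.11.15 (numpy 2.4.6, scipy 1.17.1, pandas 2.3.3). Levels have exact Poisson intervals, shares exact Clopper-Pearson intervals, and ratios the exact conditional interval. UMIs remove PCR copies, but the intervals cover counting error only. No test was run, because cells are not replicates. A gene with at least 100 UMIs over both sides was called by size, at 1.5-fold from the median gene. Phases were scored with Seurat 5.3.0 (43 S and 54 G2M genes) in R 4.3.3. Groups by phase, KLK3 or ETV1 were compared in cells thinned to 11901 UMIs, the 10th percentile of the shallower library. TMM factors from edgeR 4.0.16 served as an alternative scaling. The scripts were tested on simulated data.

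The members, gene lists and groupings were chosen with earlier results of these data known. All members are named. Other pathway genes are named when among the 3 highest or lowest ratios at 20 CPM or more, and like genes are the 3 with highest r of log2(CPM + 1) among genes with at least 500 UMIs per library, without ribosomal protein and mitochondrial genes. Genes of the cells highest in a member were chosen after their values were seen.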

Additional observations from a re-analysis of the deposited data

Results flagged for a closer look

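For 3 comparisons a member moved in opposite directions in the 2 lines. The difference was not tested, because each line is 1 library. For ODC1 in S over G1 cells the log2 ratio relative to the median gene was 0.30 in LNCaP_FGC and -0.46 in LNCaP_C4-2B, a difference of -0.75. For ODC1 in G2M over G1 cells the values were 0.36 and -0.46, a difference of -0.82. Without the 5% of cells highest in ODC1 they were 0.25 and -0.17 for S, and 0.29 and -0.31 for G2M. For SMS in KLK3-high over KLK3-low cells the values were -0.46 and 0.35, a difference of 0.81. Without the 5% of cells highest in SMS they were -0.35 and 0.03.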

How the results depend on the processing

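No paired analysis was possible because each line has 1 library and the labels carry no replicate numbers, and leaving out a replicate was not possible for the same reason. Over 610 values of single members under the alternatives, 484 moved by less than their counting interval, 126 moved by more, and 0 of the members past 1.5-fold changed sign. Of 75 counts of members past 1.5-fold, higher and lower summed, 53 stayed within 1.5 times the reported count. Those between the lines all did so, although without centring the 5 higher members became 3. For S over G1 the count of 1 became 2 in each line with a minimum of 10 UMIs, and 2 in LNCaP_C4-2B at a lower limit of 0.32 on the log2 scale. For G2M over G1 in LNCaP_FGC the count of 1 became 2 with 10 UMIs, 4 at the lower limit and 0 without the 5% of cells highest in the gene. In LNCaP_C4-2B the count of 2 became 0 without centring, and 1 with 10 UMIs, without the 10% of cells with most UMIs, without thinning, with another thinning seed, with cells split by proliferation UMIs in place of phases, and without the 5% of cells highest in the gene. For KLK3 in LNCaP_FGC the count of 0 became 2 at the lower limit. It became 1 with cells of at least 24 KLK3 UMIs set against those with none. In LNCaP_C4-2B the count of 2 became 0 without thinning and 1 without the 5% of cells highest in the gene. For ETV1 the count of 0 became 1 without centring, with 10 UMIs, at the lower limit and with at least 4 ETV1 UMIs, and 2 in G1 cells. Leaving out the 5% of cells was chosen after seeing the data, and lowers differences by construction where those cells lie mostly in 1 group. Other causes were not tested. Depth limited SMOX and PAOX, which had too few UMIs for most comparisons among cells.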
